A study of Homo sapiens with 40 samples.

Results

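The comparison described here is of NSD2-dTAG knock-in clones that had received no compound with the wild-type line they were made from. It used the H3K27me3 peak lists of all untreated libraries of NSD2dTAG#8 (clone 8), NSD2dTAG#11 (clone 11) and dTAGparental. These are 6 of the 30 H3K27me3 libraries with a peak list, 2 for each line, and 4 clone libraries were compared with 2 parental libraries.

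The cells were KMS-11, an established human multiple myeloma line with a t(4;14) translocation that drives high expression of NSD2. Parental cells were of genotype WT, and both clones carried the NSD2_dTAG knock-in, in which the endogenous protein is fused to a domain that the degrader dTAGV-1 recognises. All 6 libraries were labelled untreated (day 0), so the clones differed from the parental line by the tag and by descent through single cells, which cannot be told apart here. Each clone is a single isolate. Where values of other libraries are given, they are the dTAG parental line after 7, 14 and 21 days of the compound (WT, 6 libraries), the clones after the same times (12 libraries), and the separate knockout (KO) experiment with its WT parental line (2 libraries) and NSD2 KO clones 3 and 12 (4 libraries). CUT&Tag was run on 50000 nuclei per library with 13 PCR cycles, per the labels' protocols. The series text calls the clone replicates biological, and no label ties the parental replicates to separate cultures, so the spread behind each p-value is that between libraries and could be technical.

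H3K27me3 is written by Polycomb repressive complex 2 and marks genes held silent, among them many developmental regulators. NSD2 places H3K36me2 over broad stretches of the genome, and H3K36 methylation hinders Polycomb repressive complex 2 on the same histone tail. In t(4;14) myeloma, where NSD2 is abundant, loss of NSD2 is known to let H3K27me3 spread into regions that H3K36me2 had occupied. The untreated comparison gives the state of the mark in the tagged clones from which degradation of NSD2 starts.

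In the parental line and in clone 8, but not in clone 11, replicates differed in called length by more than the clones and the parental line did on average. Called length, the summed length of merged peaks on chromosomes 1 to 22 and X, was 76.2 and 39.0 Mb in the parental line, 69.9 and 36.1 Mb in clone 8, and 50.1 and 46.9 Mb in clone 11. The estimated background pileup, which stands in for depth, was 2.22 and 1.11 fragments per position in the parental line, 2.31 and 0.922 in clone 8, and 1.24 and 1.29 in clone 11. In the parental line and in clone 8, the library with the larger pileup was also the one with the longer peak list. The clones averaged 50.7 ± 14.1 Mb (SD, n = 4) and parental cells 57.6 ± 26.4 Mb (SD, n = 2), a difference within the spread (p = 0.733, two-sided exact permutation). The smallest p that 15 splits of 4 against 2 libraries allow is 0.0667, so no single library measure could pass 0.05. The direction of the difference in called length turned with a stricter list: peaks with −log10 q of at least 5 covered 18.4 ± 11.3 Mb in clone cells (SD, n = 4) against 17.5 ± 16.5 Mb in parental cells (SD, n = 2; exact permutation p = 0.933).

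**Figure D1:**
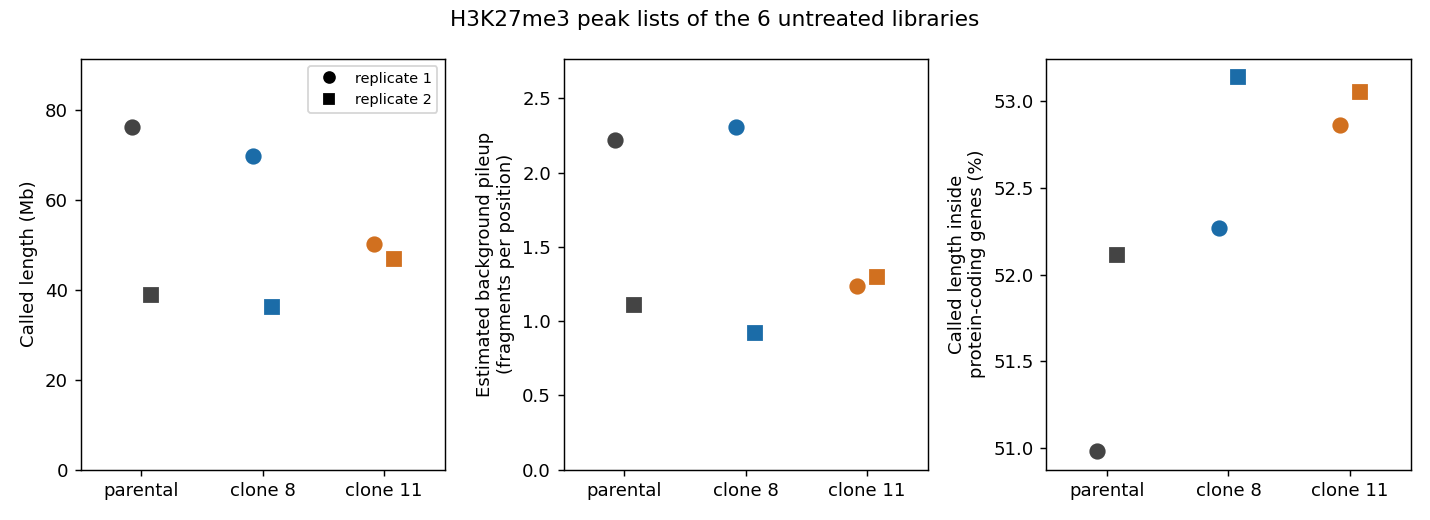
Called length (Mb), estimated background pileup (fragments per position) and percent of called length inside protein-coding genes for each untreated library, with 1 point per library and the axis of the third panel not starting at 0. Called length follows pileup in the parental line and in clone 8, and the share inside genes is higher in all 4 clone libraries (52.3% to 53.1%) than in the 2 parental libraries (51.0% and 52.1%).

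Overlap between peak lists ranged widely for every kind of pair. The Jaccard index, the shared length as a percent of the joint length, was 33.6% to 53.7% over the 8 pairs of a clone and a parental library, with a median of 39.7%, and 42.0% to 53.1% over the 4 pairs of clone 8 and clone 11, with a median of 44.6%. It was 36.4% between the 2 parental libraries, 37.8% between the 2 of clone 8 and 48.0% between the 2 of clone 11. The closest pair of all joined parental replicate 1 and clone 8 replicate 1 (53.7%), the libraries with the 2 largest pileups. Of the peaks in a clone library, 72.4% on average overlapped a peak of a parental library by at least 1 bp, and 66.0% of parental peaks overlapped a clone peak.

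The peak lists lay partly inside genes in all 6 libraries, slightly more so in the clones. Protein-coding genes took 51.0% and 52.1% of the called length in the parental line, 52.3% and 53.1% in clone 8, and 52.9% and 53.05% in clone 11. The 2 groups did not overlap. The difference was 1.28 percentage points, with an exact two-sided permutation p of 0.0667, the smallest the design can give, and 0.133 after adjustment over the 2 main library measures. The separation held with peaks of −log10 q of at least 5 (clones 55.2% to 56.3%, parental line 54.4% and 54.0%). It was lost with lists of equal called length (0.876 points, exact permutation p = 0.333), with peaks of a fold of at least 4 (1.06 points, exact permutation p = 0.267) and with gaps of up to 3 kb joined (1.14 points, exact permutation p = 0.2). NSD2 KO clones, for scale, had 44.2% to 47.0% inside genes, and dTAGV-1-treated clones 43.2% to 46.2%, both below the parental line, whereas the untreated clones lay above it and above the later parental libraries (50.7% to 52.2%).

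Each protein-coding gene was then given a coverage, the part of its annotated length that lay in merged peaks, in percent, and 13938 of 19309 genes had a mean between 1% and 99% over the 30 libraries and were tested. No gene passed limma's test with Benjamini-Hochberg adjustment in either direction (0% higher, 0% lower), and the smallest adjusted p was 0.0657. With the replicate number as a block, limma called 2 genes lower, ZDHHC11B and OPN1LW, and 0 higher. Without parental replicate 2, limma called 19 genes lower and 0 higher, and without parental replicate 1 it called 3 lower and 1 higher, with the lone parental library assumed to vary like the other groups. With all 6 libraries, an unadjusted p under 0.05 was reached by 470 genes, 168 higher and 302 lower in the clones. The same held for the 48605 tested 25 kb windows of the autosomes, of which 0% were called higher and 0% lower, and 682 had an unadjusted p under 0.05. The median difference over genes was -0.04 percentage points and the median standard error 2.40 points. For 85.3% of tested genes the clones and the parental line differed by less than 5 points. The same filter on the 6 untreated libraries alone kept 10840 genes and 26368 windows. Part of the tested genes and windows thus had a mean outside 1% to 99% in these 6, with little room to differ.

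Counts of genes whose libraries did not overlap give the background for single genes. In 343 genes all 4 clone libraries lay above both parental libraries (2.46% of those tested), and in 824 all 4 lay below (5.91%). Among windows the shares were 1.22% above and 4.78% below. Genes and windows that passed the filter mainly through other libraries count in these shares. Called length was also lower on average in the clones, and its part in the excess on the lower side was not tested beyond the scaling that follows. After each library's coverage was scaled by its called length, limma called 90 genes higher (0.646%) and 106 lower (0.761%), and 130 windows higher (0.267%) and 254 lower (0.523%). Scaling applies the whole difference in called length to every gene, including genes already fully covered. Scaled values were not capped at 100%, so some scaled differences passed 100 points (MRPS34 173, C6orf15 -122). With the pileup as a covariate instead, limma called 0 genes.

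**Figure D2:**
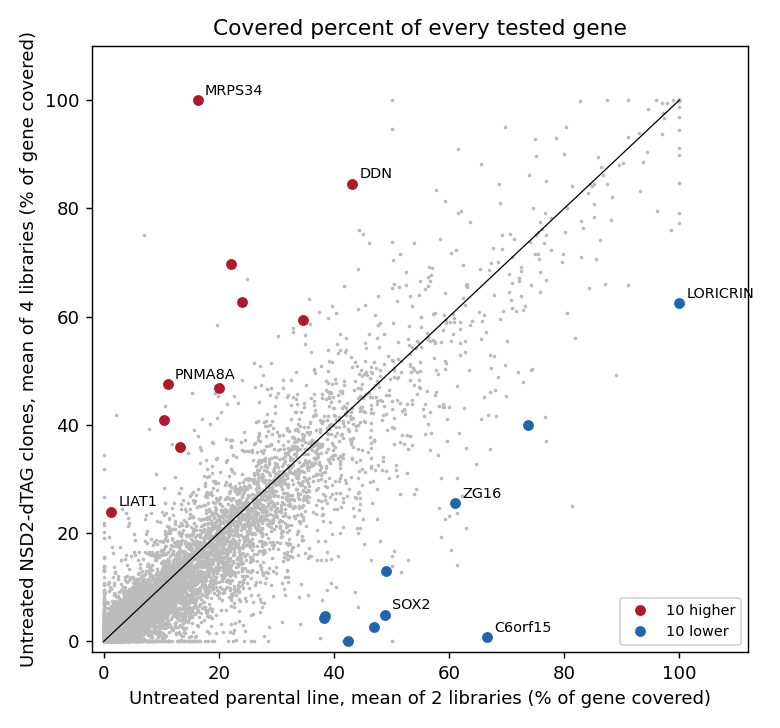
Percent of each tested gene covered by H3K27me3 peaks in the untreated parental line (x axis, mean of 2 libraries) and in the untreated NSD2-dTAG clones (y axis, mean of 4 libraries), with the line of equality; the 10 genes with the largest differences in each direction are coloured and some are named. Most genes lie along the line, and C6orf15 (66.6% against 0.74%) and MRPS34 (16.33% against 100%) lie farthest from it among the coloured genes.

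The KO experiment, with the same number of libraries and the same model, shows what the fit can call. Against their own parental line, the KO clones had 2508 genes higher (18%) and 104 lower (0.746%). The difference between the KO contrast and the untreated-clone contrast was itself tested, with 1125 genes higher in the KO contrast (8.07%) and 28 lower (0.201%) at adjusted p under 0.05 by limma. The 2508 genes gained in the KO clones had a median difference of 6.59 percentage points there, which is how they were chosen. In the untreated clones their median was 0.00 points, beside -0.04 over all tested genes. All 4 untreated clone libraries lay above the parental line in 48 of the 2508 (1.91%) and below it in 153 (6.10%). Over all tested genes the shares were 2.46% and 5.91%. The 2508 were sparsely covered without knockout, with list means of 2.37% and 1.16% in the parental line and 1.00% to 1.91% in the untreated clones. Among the 104 genes that lost coverage with NSD2 knockout, 4 lay above (3.85%) and 10 below (9.62%) in the untreated clones, with a median of -0.06 points. None of these genes was called in the untreated clones in the main fit. OPN1LW, called lower with the replicate block, was among the 104.

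NSD2 itself (chromosome 4, 1871393 to 1982192, hg38) was almost free of peaks in every untreated library. It was covered by 0% in both parental libraries, 0.24% and 0% in clone 8, and 0% in both clone 11 libraries, and was too sparsely covered to be tested. FGFR3, a growth factor receptor gene on the same chromosome end that is a further target of the translocation (chromosome 4, 1793293 to 1808867), had coverage of 35.4% and 2.57% in the parental line, 44.3% and 9.80% in clone 8, and 19.5% and 10.6% in clone 11. The FGFR3 values overlapped between the lines and tracked pileup within the parental line and clone 8 (difference 2.06 ± 13.4 points, SE; limma adjusted p = 1). LETM1, a mitochondrial ion transporter gene between FGFR3 and NSD2, was covered by 7.30% and 3.76% in the parental line and by 0% to 4.45% in the 4 clone libraries (limma adjusted p = 1). Of the 32 tested genes in the list for this chromosome end, 1 lay above and 1 below in all clone libraries (3.125% each). Over all tested genes the shares were 2.46% above and 5.91% below. The median difference of the list was -0.64 points, or -0.06 after scaling.

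The labelled cell type was checked against its markers, for which a silencing mark gives limited evidence. TNFRSF17 and JCHAIN, which encode the plasma cell receptor BCMA and the immunoglobulin joining chain, had no peak in any of the 6 libraries. PRDM1, the master regulator of plasma cells, was covered by at most 0.34%, and IRF4 by at most 4.42%. Of 10 plasma cell markers, 5 stayed at or under 5% in all 6 libraries. Others were covered, SLAMF7 by 9.59% to 36.8%, SDC1 by up to 11.6% and MZB1 by up to 10.5%. The 10 averaged 1.71% to 6.30% in the parental line and 2.85% to 6.95% in the clones. Among B cell markers CD22 was covered by 14.2% to 41.1% and PAX5, the B cell master regulator, by 5.15% to 12.9%. Over the 9 B cell markers the mean was 13.5% to 28.7% in the parental libraries and between 6.75% and 26.7% in the clones. The T cell markers averaged 2.86% to 7.93% in the parental line and 1.64% to 8.08% in the clones, and the monocyte markers 4.38% to 8.78% and 3.36% to 6.28%, ranges that overlap those of the plasma cell markers. MS4A1, CD3E, CD14 and CD163 had no peak in any of the 6, although they belong to other lineages, so absence of a peak is no sign of expression.

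The genes with the largest higher coverage in the clones were short: 15 of the 20 genes named by size of difference, both directions together, spanned under 5 kb, against a median of 20741 bp for tested genes. A single peak can cover much of such a gene. None of the 20 passed the test, with limma adjusted p between 0.447 and 1. They were the 10 largest differences in each direction among genes with an unadjusted p under 0.05 and no overlap between the groups.

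**Figure D3:**
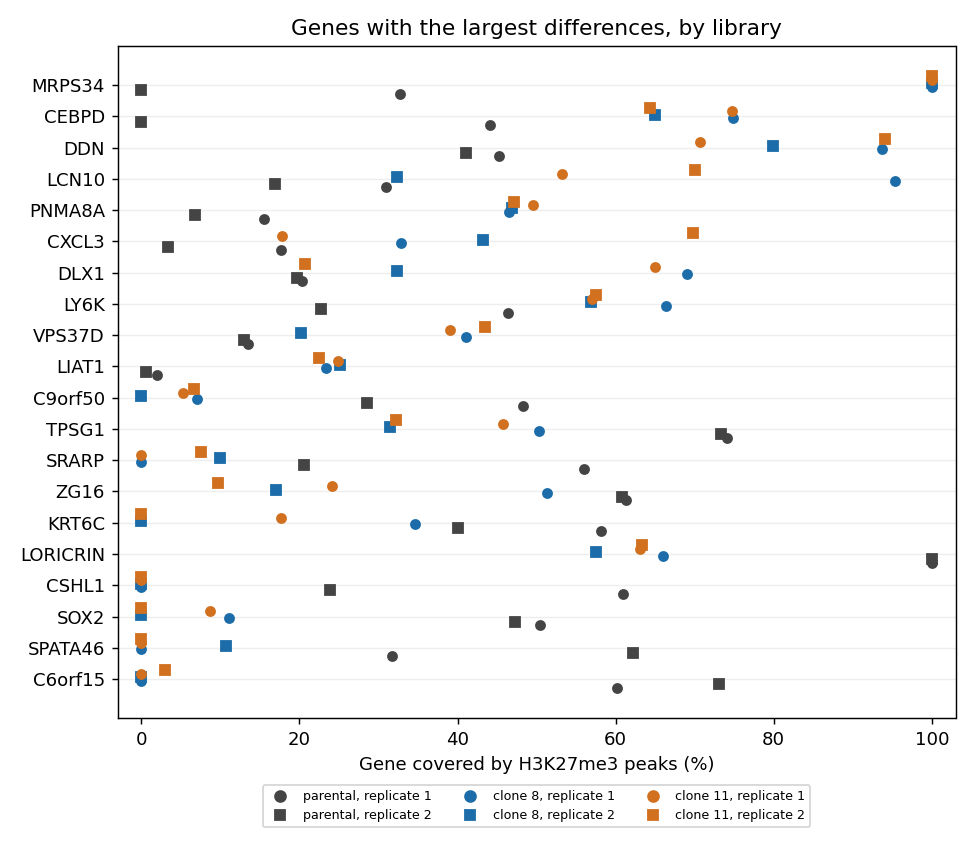
Percent of the gene covered by H3K27me3 peaks (x axis) in each of the 6 untreated libraries for the 20 genes with the largest differences, ordered by difference, with 1 point per library, colours for lines and shapes for replicates. The clone points of C6orf15 sit at 0% to 2.96% against 60.2% and 73.1% in the parental line, and those of PNMA8A at 46.5% to 49.6% against 6.80% and 15.5%.

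PNMA8A, a member of the paraneoplastic antigen family (chromosome 19, 46466503 to 46471563), was 1 of 2 genes among the largest differences whose promoter window had a peak in all libraries of one group and in none of the other. It was covered by 15.5% and 6.80% in the parental line, 46.5% and 46.9% in clone 8, and 49.6% and 47.1% in clone 11. The 4 clone values lay within a few points of each other and far above both parental values. The difference was 36.4 ± 10.7 points (SE; 95% interval 13.8 to 59.0; limma adjusted p = 0.941, and 0.00736 after scaling by called length). In the later parental libraries the gene ran from 10.9% to 31.0%, still below all 4 untreated clone libraries, and in treated clones from 16.6% to 47.7%. In the KO experiment it was at 10.9% and 45.8% in the WT parental line, and ran from 7.77% to 47.2% in the KO clones. Its neighbour PNMA8B (46491191 to 46495867), named after its values were seen, was covered by 37.6% and 12.1% in the parental line, 100% and 52.7% in clone 8, and 56.2% and 59.0% in clone 11. The later parental libraries reached 74.8% for PNMA8B, so that gene overlapped with the clones.

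Promoter windows, 250 bases before to 50 after the start of the gene, were available from RefSeq for 15411 of the genes. A peak touched 5831 of them in all 6 libraries. Just 27 windows were in a peak in all 4 clone libraries and in neither parental library, and 39 showed the opposite pattern. Each of the 27 had a peak in at least 1 of the 6 later parental libraries. Of the 39, 2 had no peak in any later parental library and 3 had one in all 6. Among the 20 genes with the largest differences, 2 had a window of either kind, PNMA8A and LORICRIN, and both are printed for that reason. The SOX2 window had a peak in every library but was covered in full in both parental libraries and by 62.3% and 12% in clone 8 and 59% and 37.3% in clone 11. Sequences are from RefSeq on GRCh38.p14, 5′ to 3′ on the strand of the gene, with each CG dinucleotide (the site of CpG methylation, the same on both strands) in capitals.
PNMA8A: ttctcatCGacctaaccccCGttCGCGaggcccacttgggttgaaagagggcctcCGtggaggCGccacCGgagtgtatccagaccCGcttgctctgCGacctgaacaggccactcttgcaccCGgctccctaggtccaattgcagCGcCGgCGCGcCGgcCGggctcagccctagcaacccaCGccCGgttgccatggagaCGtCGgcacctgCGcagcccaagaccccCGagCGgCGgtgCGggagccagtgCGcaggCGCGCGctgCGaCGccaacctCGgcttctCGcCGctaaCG
LORICRIN: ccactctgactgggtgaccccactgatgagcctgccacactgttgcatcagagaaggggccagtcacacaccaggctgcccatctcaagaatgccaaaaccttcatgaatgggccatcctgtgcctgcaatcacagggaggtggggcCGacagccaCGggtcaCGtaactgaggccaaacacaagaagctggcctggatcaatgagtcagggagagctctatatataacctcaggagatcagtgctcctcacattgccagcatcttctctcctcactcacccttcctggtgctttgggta

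The PNMA8A window (chr19:46471514-46471813, minus strand) holds 35 CG dinucleotides, a count that 19.5% of all promoter windows reach. It lay wholly inside a peak in all 4 clone libraries, outside peaks in both parental libraries, and in a peak in 4 of the 6 later parental libraries. The LORICRIN window (chr1:153259437-153259736, plus strand) holds 3, a count that 91.1% of windows reach, where the median over all windows is 22. It was 64.7% and 26.3% covered in the parental libraries, 0% in the 4 clone libraries, and had a peak in 3 of the 6 later parental libraries. The promoters are thus of opposite kinds in CG content, a description of 2 windows and no more.

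LIAT1, which encodes a partner of the arginyltransferase ATE1 (chromosome 17, 410325 to 414666), had clone values close to each other (24.0% ± 1.23, SD, n = 4). It was covered by 2.00% and 0.55% in the parental line, 23.4% and 25.1% in clone 8, and 24.9% and 22.5% in clone 11. All 6 later parental libraries lay between 0.90% and 2.26%, and the treated clones between 0.78% and 2.26%. Among libraries outside the untreated clones, values as high occurred in the KO experiment, where the parental line reached 24.9% and a KO clone 23.7%. The difference was 22.7 ± 5.54 points (SE; limma adjusted p = 0.635).

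DDN, which encodes the postsynaptic and kidney podocyte protein dendrin (chromosome 12, 48995149 to 48999375), was covered by 45.3% and 41.1% in the parental line, 93.7% and 79.9% in clone 8, and 70.6% and 94.0% in clone 11. The later parental libraries reached at most 47.9%, so all 4 clone libraries were above all 8 parental ones (difference 41.4 ± 10.8 points, SE; limma adjusted p = 0.762). When peaks up to 3 kb apart were joined, the DDN difference was -9.36 points. VPS37D, which encodes a subunit of the ESCRT-I sorting complex (chromosome 7, 73665347 to 73672110), was covered by 13.5% and 13.0% in the parental line, 41.1% and 20.2% in clone 8, and 39.1% and 43.5% in clone 11. The later parental libraries stayed between 8.35% and 14.8% for VPS37D, below every untreated clone library (limma adjusted p = 1).

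In MRPS34 and CEBPD the parental line had 1 library at 0%. MRPS34, a mitochondrial ribosomal protein gene of 1240 bp, was wholly covered in all 4 clone libraries and by 32.7% and 0% in the parental line, but up to 100% in later parental libraries. CEBPD, an inflammation-linked transcription factor gene, was covered by 64.3% to 74.8% in the clones against 44.2% and 0%, with 72.0% to 100% in later parental libraries. LCN10, a lipocalin gene, CXCL3, a chemokine gene, DLX1, a homeobox gene of forebrain development, and LY6K, a cell-surface antigen gene, completed the 10. Against the later parental libraries, 5 of the 10 higher genes (DDN, PNMA8A, LY6K, VPS37D and LIAT1) still had all clone libraries above. The 10 had been chosen by these clone values, and the share among all tested genes is not given here, so the count is a description.

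On the lower side C6orf15, a gene of the major histocompatibility region (chromosome 6, 31111223 to 31112575), stood first. It was covered by 60.2% and 73.1% in the parental line, by 0% in both libraries of clone 8, and by 0% and 2.96% in clone 11. The later parental libraries ran from 44.9% to 100%, and the KO parental libraries were at 97.0% and 100%. Treated clones ranged from 0% to 100%, so the low level of the untreated clones was not kept in all treated libraries. The difference was -65.9 ± 14.9 points (SE; limma adjusted p = 0.447).

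LORICRIN, the main cornified envelope protein of skin (chromosome 1, 153259687 to 153262124), was 100% covered in both parental libraries, 66.0% and 57.5% covered in clone 8, and 63.1% and 63.3% in clone 11. Later parental libraries ran from 69.1% to 100%, all treated clone libraries and all KO clone libraries were at 100%, and the KO parental libraries were at 62.4% and 100%. The difference was -37.5 ± 8.73 points (SE; limma adjusted p = 0.457). SOX2, the pluripotency and neural progenitor factor (chromosome 3, 181711925 to 181714436), was covered by 50.4% and 47.3% in the parental line, 11.1% and 0% in clone 8, and 8.68% and 0% in clone 11. For SOX2 the later parental libraries spanned 0% to 52.8%, so its day 0 contrast was not seen against other times (limma adjusted p = 1).

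ZG16, a secreted lectin of the gut, was covered by 61.3% and 60.9% in the parental line, 51.3% and 17.1% in clone 8, and 24.1% and 9.67% in clone 11. TPSG1, a mast cell protease gene, was covered by 74.0% and 73.4% against 31.5% to 50.2% in the clones, with later parental libraries from 21.6% to 79.2%. KRT6C, a keratin gene with near-identical neighbours, was covered by 58.1% and 40.1% against 0% to 34.6%. CSHL1, a member of the growth hormone cluster whose copies are also nearly identical, was covered by 60.9% and 23.9% against 0% in all 4 clone libraries. The uniqueness of reads in such copies is not given in the sources used here. SPATA46, SRARP and C9orf50 completed the 10. In 4 of the 10 lower genes (C6orf15, LORICRIN, SRARP and C9orf50) all untreated clone libraries were also below all later parental ones. As on the higher side, the choice rested on the same clone values and the share among all tested genes is not given here.

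Including the 6 later parental libraries as controls brought a few genes past the threshold, an alternative chosen after seeing the data. Those libraries had been given dTAGV-1, so compound, time and line are mixed in it. Against all 8 parental libraries limma called 4 genes higher (0.0287%) and 7 lower (0.0502%). The higher genes were DDN, LIAT1, SLC31A2 and B3GNT4, and the lower C6orf15, RNF223, TP53BP2, ZDHHC11B, TRMT5, NUDT16L1 and OPN1LW.

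ZDHHC11B, a palmitoyltransferase gene near the end of chromosome 5 (710355 to 784729), was covered by 17.2% and 13.5% in the untreated parental line, 5.46% and 1.45% in clone 8, and 4.30% and 2.16% in clone 11. All 8 parental libraries lay between 13.5% and 21.6%, and the 12 treated clone libraries between 0.45% and 9.91%. The clones were thus below the dTAG parental line at every time, but the parental line of the KO experiment, at 6.26% and 10.8%, overlapped with the treated clones. The difference at day 0 was -12.0 ± 2.67 points (SE; limma adjusted p = 0.447, and 0.0191 with the replicate block). ZDHHC11B is nearly identical in part to its neighbour ZDHHC11, so peaks there are uncertain. TPPP, a tubulin-binding protein gene beside it (659862 to 700727), was covered by 20.9% and 14.3% in the parental line, 8.81% and 4.33% in clone 8, and 6.12% and 6.21% in clone 11, below the later parental libraries too (11.3% to 24.2%; day 0 limma adjusted p = 1).

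OPN1LW, the red cone opsin gene on chromosome X (154144243 to 154159032), had the smallest adjusted p of the whole day 0 comparison. It was covered by 14.9% and 16.27% in the parental line, 2.62% and 0% in clone 8, and 3.96% and 0.20% in clone 11. The later parental libraries lay between 4.81% and 14.8%, the treated clones between 0% and 2.23%, and the KO clones between 0% and 6.53%. The parental line of the KO experiment was at 13.7% and 21.9%, and OPN1LW was called lower in the KO clones (limma adjusted p = 0.000165). The day 0 difference was -13.9 ± 2.12 points (SE; 95% interval -18.4 to -9.40; limma adjusted p = 0.0657, and 0.0321 with the replicate block). Near-identical opsin copies lie beside it, so its peaks are uncertain as well.

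B3GNT4, a glycosyltransferase gene (chromosome 12, 122203709 to 122208952), was covered by 14.4% and 3.74% in the parental line, 39.5% and 27.3% in clone 8, and 24.6% and 32.2% in clone 11. Later parental libraries reached 17.1%, and treated clones 28.3%. SLC31A2, a copper transporter gene, was covered by 4.36% and 2.96% in the parental line and by 7.92% to 14.3% in the clones, with later parental libraries up to 6.92%. RNF223, a RING finger gene, was covered by 59.2% and 70.03% against 27.8% to 41.5%, but treated clones had 56.7% to 75.9%.

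The day 0 parental libraries also stood apart from the other parental libraries at some genes, which limits any single-gene reading. IRF7, the interferon regulatory factor of antiviral responses (chromosome 11, 612555 to 615950), was covered by 40.8% and 39.8% in the untreated parental line, 13.8% and 2.47% in clone 8, and 14.7% and 9.31% in clone 11. The 6 later parental libraries lay between 7.42% and 17.8%, the level of the clones. The day 0 difference was -30.2 ± 6.17 points (SE; limma adjusted p = 0.397). HOXD4, a homeobox gene of body patterning (chromosome 2, 176151550 to 176153226), was covered by 23.7% and 27.5% at day 0 in the parental line, by 0% in all 4 untreated clone libraries and by 0% in all 6 later parental libraries. UQCRQ, a respiratory chain subunit gene named after its values were seen, was covered by 1.99% and 0% in the untreated parental line and 9.75% to 24.7% in the clones, where later parental libraries had 5.08% to 18.5%.

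**Figure D4:**
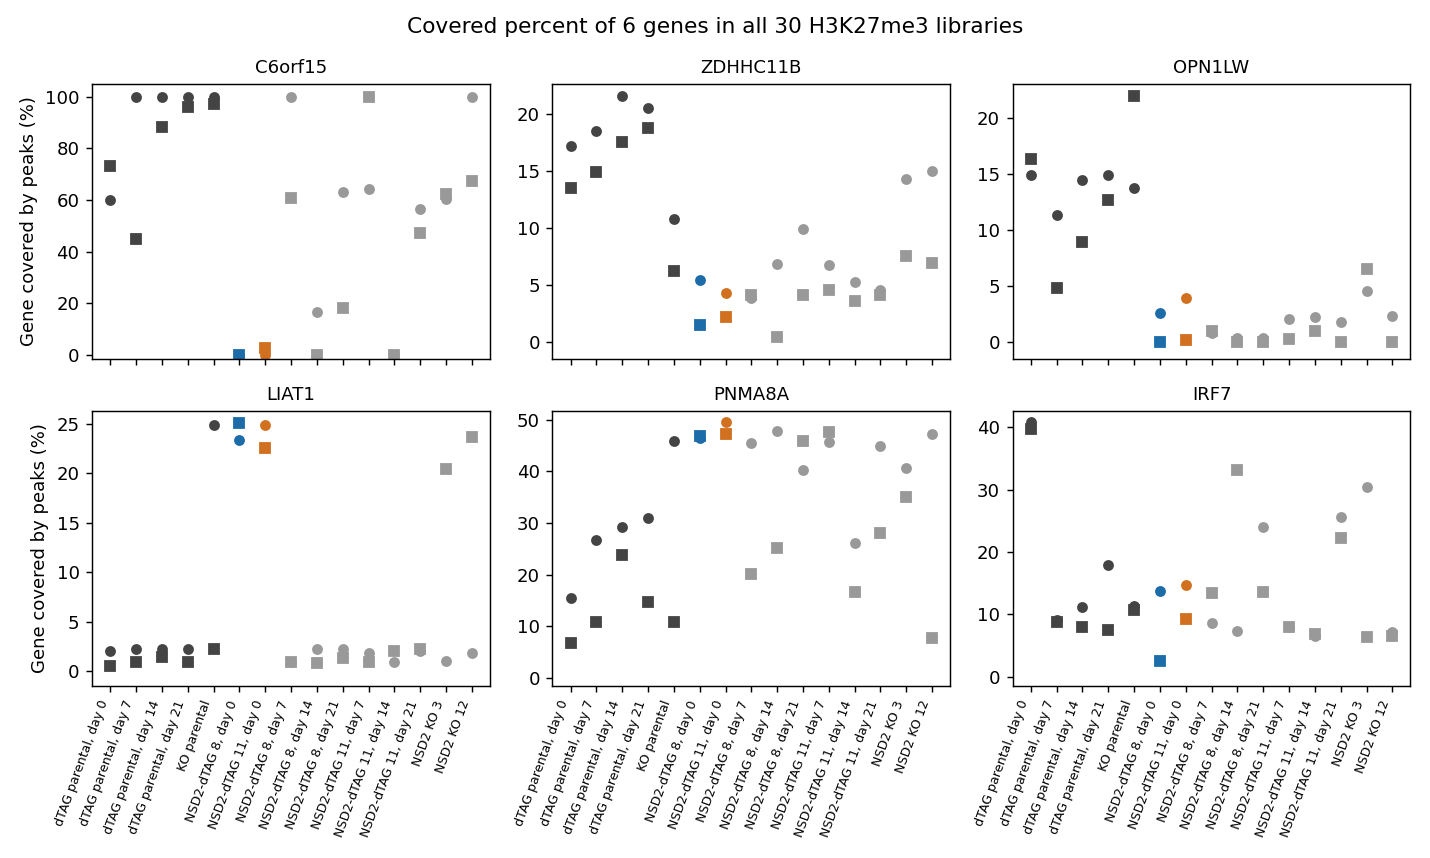
Percent of the gene covered by H3K27me3 peaks (y axis, scaled for each gene) in all 30 libraries by group (x axis), with dark points for parental libraries, blue for untreated clone 8, orange for untreated clone 11, grey for NSD2 KO clones and dTAGV-1-treated clones, circles for replicate 1 and squares for replicate 2. ZDHHC11B and OPN1LW lie below the dTAG parental line in the untreated and treated clones, LIAT1 is near 24% in the untreated clones and near 2% in the treated ones, and IRF7 is near 40% in the 2 untreated parental libraries alone among parental libraries.

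Gene lists gave no member that passed the test in any of 28 lists. Over all tested genes, 2.46% lay above and 5.91% below in all clone libraries. HOX cluster genes, classic Polycomb targets, had 35 tested members of 39, 1 above (2.86%) and 4 below (11.4%) in all clone libraries, and a median of -1.09 points (0.28 after scaling). HOXD4 was among the 4 below, and was at 0% in every later parental library as well. HOXB5 was at 0% in the parental line and in the second replicate of each clone, and at 49.1% and 57.2% in the first replicates. HOXB13 was 100% and 63.7% covered in the parental line, 74.8% and 34.1% in clone 8, and 82.0% and 32.9% in clone 11. In both HOXB genes the first and second replicates of a clone differed more than the lines did. Of 117 tested developmental transcription factor genes, 7 lay above (5.98%) and 6 below (5.13%), with a median of 0.00 points, and SOX2 and DLX1 were the largest of each side.

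Lymphoid and other lineage lists were short, so a single gene moves their shares, which stand beside 2.46% above and 5.91% below over all tested genes. Among 18 tested B cell genes 2 lay above (11.1%) and 2 below (11.1%). CCR7, the lymph node homing receptor, was 51.3% and 51.4% covered in the parental line and 55.8% to 75.2% in the clones. Plasma cell genes (14 tested, 0 above, 1 below) had a median of -0.43 points, T cell genes (16 tested, 0 above, 1 below) -2.45 points, and monocyte and macrophage genes (15 tested, 0 above, 0 below) -1.91 points.

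Genes for subunits of Polycomb repressive complex 2 and for H3K27 or H3K36 enzymes had 14 tested members of 24, 0 above and 0 below, and a median of 0.04 points. Over all tested genes 2.46% lay above and 5.91% below, and a single gene moves the share of lists this short. KDM6B, an H3K27 demethylase gene, was covered by 13.7% and 0% in the parental line and 10.5% to 13.9% in the clones. Genes of Polycomb repressive complex 1 had 17 tested, 0 above and 3 below (17.6%), among them PHC1 with 3.99% and 4.20% against 0% to 3.33%. The 8 tested genes of the VHL ubiquitin ligase, which dTAGV-1 recruits, had 0 above and 0 below and a median of 0.52 points. Of 6 tested cell cycle inhibitors 0 lay above and 0 below. CDKN1A, the p21 gene, was 24.0% and 27.3% covered in the parental line and 22.1% to 24.1% in the clones.

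Further lists are set beside the same shares of all tested genes, 2.46% above and 5.91% below. The interferon and housekeeping lists are short too, so a single gene moves their shares. Interferon-stimulated genes had 23 tested, 1 above (4.35%) and 3 below (13.0%). BST2, the antiviral tetherin, was 32.7% and 35.5% covered in the parental line, 32.5% and 13.9% in clone 8, and 27.6% and 13.9% in clone 11, beside IRF7 above. Keratin and keratin-associated genes had 85 tested, 1 above (1.18%) and 7 below (8.24%), with a median of 0.00 points. Zinc finger genes on chromosome 19 had 152 tested, 12 above (7.89%) and 7 below (4.61%), and a median of 0.10 points (0.70 after scaling, beside 0.09 for all genes). Solute carrier genes had 309 tested, 7 above (2.27%) and 19 below (6.15%). Housekeeping genes had 19 tested, 3 above (15.8%) and 0 below, and RPS18, a ribosomal protein gene, was covered by 0.52% and 0% in the parental line and 5.43% to 8.86% in the clones.

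Along the genome, windows whose groups did not overlap seldom formed runs. Over all 25 kb windows of the autosomes, 2161 runs lay below and 593 above, and 18 of the former and 0 of the latter reached 3 windows. The longest, 7 windows, lay on chromosome 9 (132400001 to 132575000) and holds TTF1, the RNA polymerase I terminator gene, and CFAP77, a cilium gene. Mean coverage over these windows was 21.9% and 14.3% in the parental line, 9.72% and 2.75% in clone 8, and 6.98% and 4.64% in clone 11, with 15.2% to 30.9% in the later parental libraries. A run of 4 windows on the same arm (132750001 to 132850000) lies in AK8, an adenylate kinase gene, with 23.3% and 14.7% against 1.23% to 9.96%, and 13.2% to 32.8% later. Both runs lay below all 8 parental libraries.

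Other runs below the parental line were on chromosome 1 at 7175001 to 7300000, inside CAMTA1 (5 windows; 25.3% and 15.5% against 2.89% to 9.92%), and at 8250001 to 8350000 at SLC45A1 (4 windows; 20.1% and 14.1% against 4.58% to 10.8%). CAMTA1 as a whole gene, at 984253 bp, was covered by 21.8% and 10.5% in the parental line and 8.49% to 17.4% in the clones, with overlap. On chromosome 11 a run of 5 windows (67625001 to 67750000) spans NUDT8, TBX10, ACY3 and ALDH3B2 (16.4% and 15.2% against 6.71% to 10.7%). On chromosome 5 a run of 3 windows (650001 to 725000) spans parts of CEP72, TPPP and ZDHHC11B (14.4% and 8.47% against 2.86% to 4.80%). None of their windows was called.

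On a larger scale the layout of called length along chromosomes is described over 5 Mb windows, with no test. Shares of 1 total are tied to each other, so a rise in some windows lowers others, and the windows are not separate observations. As a share of autosomal called length, 5 Mb windows did not overlap between the groups in 23 of 230 on the higher side (10%) and 73 on the lower side (31.7%). Of these, 15 and 41 also had all clone libraries beyond all later parental ones. The lowest ratio was on chromosome 12 from 110 to 115 Mb, where the share was 2.22 and 2.08 kb per Mb of called length in the parental line, 1.503 and 1.416 in clone 8, and 1.55 and 1.39 in clone 11, with 2.17 to 2.51 in later parental libraries. From 120 to 125 Mb it was 2.64 and 2.74 kb per Mb in the parental line against 1.72 to 2.00 in the clones. Chromosome 20 from 35 to 40 Mb had 4.81 and 5.35 against 3.85 to 4.16. The largest ratio was on chromosome 19 from 50 to 55 Mb, with 8.68 and 7.83 kb per Mb in the parental line, 11.7 and 10.3 in clone 8, and 10.5 and 10.3 in clone 11.

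Windows at a chromosome's start, or beginning within 10 Mb of its last position, were 44 of the 230 compared (19.1%), 17 of the 23 higher and 7 of the 73 lower. That observation led to a measure chosen after its values were seen, so it is given as a description, without its permutation p. The share of autosomal called length within 5 Mb of either end of a chromosome was 26.5% and 27.4% in the parental line, 29.5% and 29.6% in clone 8, and 28.9% and 28.8% in clone 11. The 6 later parental libraries had 25.4% to 27.1%, and the KO parental libraries 25.7% and 27.0%, so all 4 untreated clone libraries were above all 10 parental libraries. KO clones had 13.5% to 17.8% and treated clones 13.9% to 18.1%. Clone libraries averaged 29.2% ± 0.396 (SD, n = 4) and parental libraries 27.0% ± 0.687 (SD, n = 2), a difference of 2.26 points. Against the 6 later parental libraries, with compound and time mixed in, it was 3.10 points. With all lists shortened to equal length the day 0 difference was 2.48 points, for peaks with −log10 q of at least 5 it was 1.71 points and for peaks with a fold of at least 4 it was 0.73 points.

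**Figure D5:**
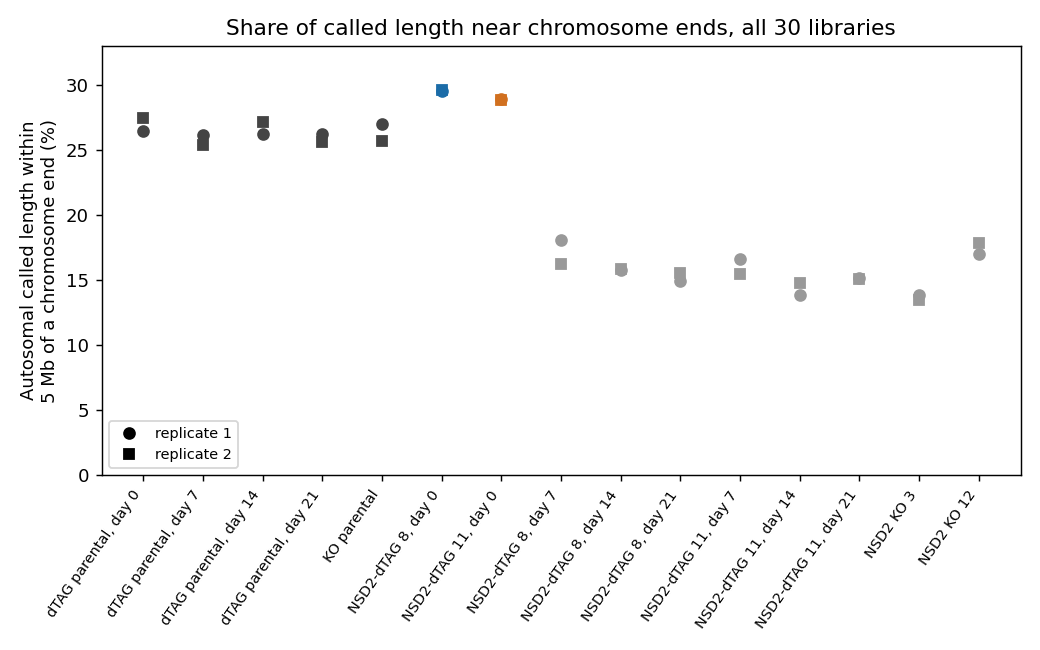
Percent of autosomal called length within 5 Mb of a chromosome end (y axis) for all 30 H3K27me3 libraries by group (x axis), with dark points for parental libraries, blue and orange for the untreated clones, grey for NSD2 KO clones and dTAGV-1-treated clones, circles for replicate 1 and squares for replicate 2. The 4 untreated clone libraries lie between 28.8% and 29.6%, above the 10 parental libraries (25.4% to 27.4%), and the grey points lie between 13.5% and 18.1%.

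By whole chromosome, 3 of 23 chromosomes had a higher share of called length in all clone libraries and 2 a lower one. Chromosome 4 took 2.73% and 2.53% in the parental line, 2.93% and 2.94% in clone 8, and 2.90% and 2.97% in clone 11, but the later parental libraries, at 2.65% to 2.90%, reached the clones. Chromosome 12 took 3.88% in both parental libraries, 3.63% and 3.47% in clone 8, and 3.60% and 3.63% in clone 11, below the later parental libraries as well (3.85% to 3.96%). Chromosomes 4 and 12 each had p = 0.0667 by exact two-sided permutation, 0.483 after Benjamini-Hochberg adjustment over 29 secondary measures. The 29 include the share near chromosome ends, chosen after its values were seen, and the adjusted p depends on that family. Chromosomes 9 and 21 were the other higher ones and chromosome 15 the other lower one. Peak lists cannot tell a difference in the mark from a difference in copy number of a region, and copy number was not tested.

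No gene separated the clones from each other in the test. Direct comparison of clone 8 with clone 11 called 0 genes and 0 windows by limma, with 221 genes and 136 windows at an unadjusted p under 0.05. Against the parental line, clone 8 alone and clone 11 alone each had 0 genes called, with 377 and 433 at an unadjusted p under 0.05. Both clone contrasts share the parental libraries, so likeness between them is not counted as support.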

How the data were processed

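The authors deposited a peak list in broadPeak format for each library (MACS3 3.0.2 and hg38 per the submitters' processing notes, which also name fastp 0.24.0, Bowtie2, SAMtools, Picard, deepTools 3.5.1, DESeq2 and ChIPseeker 1.42.1 without roles). For calling options and any use of IgG libraries as control: not given in the sources used here. The deposited score, the fold (a ratio of enrichment) and −log10 p and −log10 q belong to single peaks. The deposited −log10 q and fold were used to filter or rank peaks, and fold with −log10 p to solve the caller's background.

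Read counts are not in a peak list, so depth was estimated as the background pileup that reproduces fold and p of the shortest 2% of peaks, assuming a pseudocount of 1 (tolerance 0.002 in −log10 p, window 0.01). Depth differs between libraries, and a shallow library misses weak peaks. Peaks were merged per library. Genes were placed by RefSeq, assembly GRCh38.p14 (protein-coding, at least 1 kb); rows on unplaced, alternate and patch scaffolds were left out. Coverage was tested with limma 3.58.1 in R 4.3.3 (1 mean per group over 30 libraries, 15 residual degrees of freedom, eBayes with trend, Benjamini-Hochberg adjusted p under 0.05), after a filter of 1% to 99% mean coverage. All adjusted p of genes and windows are from this fit. Library measures were compared by exact two-sided permutation. Python 3.11.15, pandas 2.3.3 and scipy 1.17.1 were used.

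Named genes were the 10 largest differences in each direction with no overlap between groups, passing the test or, failing that, at an unadjusted p under 0.05, plus the 2 to 4 largest of each list, the NSD2 neighbours and markers. Genes called against the 8 or the 6 later parental libraries, HOXD4, PNMA8B, UQCRQ, CFAP77, AK8, CAMTA1, TPPP, CEP72, runs of windows that do not overlap (none was called) and the chromosome-end measure were added after their values were seen. The members and lists were chosen with earlier results of these data known. No label says what a replicate number shares. Deviations of same-numbered libraries from their line's mean correlated over 48605 windows at 0.69 (parental line and clone 8), 0.19 (parental line and clone 11) and 0.21 (both clones), so a fit with the number as a block is given where it changes a call. IgG libraries were not analysed here. Some members of the lists are not reported here.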

Additional observations from a re-analysis of the deposited data

Results flagged for a closer look

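Among 47 library measures and named genes, 5 had 1 of the 4 untreated clone libraries far from the other 3. Chance gives about 1 in 20 for values without ties, a rate that does not hold for genes at 0% in the other 3. For C6orf15, SPATA46 and TTC33 any value above 0% would have been flagged. LY6K coverage was 66.4% in clone 8 replicate 1, C6orf15 was 2.96% in clone 11 replicate 2 where the others were at 0%, SPATA46 was 10.7% in clone 8 replicate 2 where the others were at 0%, TTC33 was 0.16% in clone 8 replicate 1 where the others were at 0%, and PNMA8B was 100% in clone 8 replicate 1.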

How the results depend on the processing

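Calls of single genes and windows depended on scaling. Gene calls, 0 higher and 0 lower as reported (470 at an unadjusted p under 0.05), were 90 and 106 when scaled by called length, 13 and 28 with lists of equal length, 2 and 0 at a fold of at least 4, 0 and 1 with the 6 libraries alone or filtered on them, 4 and 7 against 8 parental libraries and 0 and 5 against the 6 later ones. Leaving out 1 library gave 0 to 1 genes higher and 0 to 19 lower, the 19 without parental replicate 2, 3 without parental replicate 1 and 1 without clone 11 replicate 1, and 0 to 0 windows. Window calls, 0 and 0 (682 at an unadjusted p under 0.05), were 130 and 254 when scaled, 27 and 53 at equal length, 2 and 1 at a fold of at least 4, 6 and 22 with the 6 libraries alone, and 40 and 2256 with 1 mean per line, where windows without coverage in both clones have no spread. They were 0 and 2 with the pileup covariate, 0 and 1 with the arcsine, 0 and 1 without a filter, 0 and 4 against 8 parental libraries and 0 and 11 against the later 6. The cause of these shifts was not tested.

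With a replicate block, limma called 2 genes lower (ZDHHC11B and OPN1LW) and 1 window lower, and no other call changed. Within numbers the exact permutation p of the share inside genes was 0.111, the smallest that design gives.

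Called length differed by -6.85 Mb as reported, by 0.842 Mb at −log10 q of at least 5, 1.60 Mb at a fold of at least 4 and 1.81 Mb per unit of pileup, and by -25.5 to 11.8 Mb when 1 library was left out (11.8 without parental replicate 1). The share inside genes differed by 0.718 to 1.84 points when 1 library was left out. The share near chromosome ends differed by 3.10 points against the later parental libraries and by 1.78 to 2.75 when 1 library was left out. At a reciprocal overlap of 50%, 48.1% of clone peaks and 43.6% of parental peaks were shared.

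The direction turned for CEBPD (-3.37 at −log10 q of at least 5, -12.0 against later parental libraries), DDN (-9.36) and DLX1 (-40.7) with joined gaps, LCN10 (-7.19 against later parental libraries), LY6K (-8.85) and C9orf50 (1.15) at −log10 q of at least 5, IRF7 (2.53 at −log10 q of at least 5, 4.28 at a fold of at least 4), TTC33 (-0.18 to 0.041 when 1 library was left out) and CAMTA1 (1.53 at −log10 q of at least 5, 1.01 at equal length, -9.11 to 2.22 when 1 library was left out).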
